A study of Mus musculus with 3 samples.

Results

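The regions described here are stretches of open chromatin that lay inside protein-coding genes, away from gene ends, and carried an ATAC-seq peak in each of 3 cultures of mouse hematopoietic stem cells (HSCs). Merging the peaks that overlapped across the 3 lists gave 24981 regions, of which 13670 held a peak of every list and are called common regions. A common region counted as a common gene-body region when it was under 1500 bp wide, overlapped the body of a protein-coding gene and stayed more than 1 kb away from both ends of every annotated gene. This left 2521 regions, 10.1% of all merged regions and 18.4% (95% Wilson interval 17.8 to 19.1) of the common ones. The regions were selected on the presence of a peak in each list, on merged width and on position, so that their presence in the 3 lists is a description and not a finding. The scores below come from the same peaks and are given as a description too.

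The HSCs came from adult mice of the genotype Mx1-Cre-/-;mTORflox/flox, which had received poly(I:C). These mice carried floxed mTOR alleles but no Cre, so mTOR was intact in all 3 cultures, including the control. Cells were isolated by FACS and grown in StemSpan SFEM medium with the solvent DMSO, with 200 nM AZD2014 (an ATP-competitive inhibitor of the mTOR kinase) or with 1 µM rapamycin (an allosteric inhibitor that acts through FKBP proteins). The study concerns adaptation of stem cells to mTOR targeting. In ATAC-seq a transposase inserts adapters into accessible DNA, here in 50000 cells per library. There was 1 library per condition, so the spread between replicates is unknown for every difference below, and no test or p-value is given. The sources used here do not give the duration of treatment, the number of mice behind each culture or the read depth, and intervals on shares cover counting error only.

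Open chromatin inside genes includes enhancers, to which transcription factors bind, and alternative promoters, from which shorter transcripts of the same gene start. In blood stem cells, enhancers within genes such as Runx1, Erg and Gata2 are well known sites of control by factors of the GATA, RUNX and ETS families. Promoters often lie in stretches rich in CpG dinucleotides, whereas most of the mouse genome is poor in CpG.

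Sequence could be read where an annotated RefSeq transcript start fell inside a common gene-body region, in windows from 250 bases before to 50 bases after the start, and 8 of these internal starts are shown. The 3 starts of Erg (an ETS-family factor of HSCs), Foxp1 (a forkhead factor) and Dnmt3a (a DNA methyltransferase) show the range of CpG content among genes of HSC regulation. The start of Ccnd3 (cyclin D3) and both starts of Pik3cd (the p110 delta catalytic subunit of PI3-kinase, upstream of mTOR) lie in genes of the cell cycle and mTOR lists. The starts of Cetn3 (a centrin of the centrosome) and Mesd (a chaperone of LDL receptor family proteins) belong to 2 of the highest-ranked regions. Sequences are from RefSeq on GRCm38.p6, the assembly that mm10 names, written 5′ to 3′ on the strand of the gene, with CpG dinucleotides in capitals.
Erg, chr16:95459299-95459598, minus strand: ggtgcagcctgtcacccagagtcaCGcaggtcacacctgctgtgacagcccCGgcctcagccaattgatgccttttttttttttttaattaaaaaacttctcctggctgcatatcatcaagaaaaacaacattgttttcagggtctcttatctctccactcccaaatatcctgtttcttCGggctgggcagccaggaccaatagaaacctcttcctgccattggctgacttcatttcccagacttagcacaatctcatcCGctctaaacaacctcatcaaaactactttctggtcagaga
Foxp1, chr6:99028249-99028548, minus strand: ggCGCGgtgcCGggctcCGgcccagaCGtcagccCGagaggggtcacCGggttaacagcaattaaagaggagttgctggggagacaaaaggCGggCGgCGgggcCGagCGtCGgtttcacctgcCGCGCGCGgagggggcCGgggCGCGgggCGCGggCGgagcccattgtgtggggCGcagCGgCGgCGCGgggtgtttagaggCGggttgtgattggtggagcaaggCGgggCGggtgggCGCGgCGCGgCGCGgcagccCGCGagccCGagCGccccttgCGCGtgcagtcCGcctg
Dnmt3a, chr12:3891494-3891793, plus strand: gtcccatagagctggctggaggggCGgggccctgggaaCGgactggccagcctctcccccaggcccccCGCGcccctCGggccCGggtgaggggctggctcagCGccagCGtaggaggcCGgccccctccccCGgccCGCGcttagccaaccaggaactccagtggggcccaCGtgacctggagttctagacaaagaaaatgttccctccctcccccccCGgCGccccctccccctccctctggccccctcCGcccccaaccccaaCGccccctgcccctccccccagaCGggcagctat
Ccnd3, chr17:47593217-47593516, plus strand: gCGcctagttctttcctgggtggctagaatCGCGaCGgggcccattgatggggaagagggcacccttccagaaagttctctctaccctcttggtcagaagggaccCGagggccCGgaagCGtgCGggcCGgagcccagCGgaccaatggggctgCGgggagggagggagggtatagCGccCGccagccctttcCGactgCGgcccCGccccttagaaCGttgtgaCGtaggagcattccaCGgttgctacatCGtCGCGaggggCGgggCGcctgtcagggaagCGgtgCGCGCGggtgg
Pik3cd, chr4:149676040-149676339, minus strand: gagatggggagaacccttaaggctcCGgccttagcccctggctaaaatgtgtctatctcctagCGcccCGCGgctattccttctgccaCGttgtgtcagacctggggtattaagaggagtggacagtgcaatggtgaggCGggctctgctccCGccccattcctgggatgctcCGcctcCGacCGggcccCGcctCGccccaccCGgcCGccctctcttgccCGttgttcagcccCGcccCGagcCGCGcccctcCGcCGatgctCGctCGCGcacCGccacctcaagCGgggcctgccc
Pik3cd, chr4:149698659-149698958, minus strand: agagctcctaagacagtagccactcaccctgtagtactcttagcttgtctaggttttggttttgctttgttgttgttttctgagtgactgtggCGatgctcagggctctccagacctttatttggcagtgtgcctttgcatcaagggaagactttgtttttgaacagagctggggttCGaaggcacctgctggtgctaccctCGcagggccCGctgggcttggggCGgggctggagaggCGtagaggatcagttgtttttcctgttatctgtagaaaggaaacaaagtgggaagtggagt
Cetn3, chr13:81782997-81783296, plus strand: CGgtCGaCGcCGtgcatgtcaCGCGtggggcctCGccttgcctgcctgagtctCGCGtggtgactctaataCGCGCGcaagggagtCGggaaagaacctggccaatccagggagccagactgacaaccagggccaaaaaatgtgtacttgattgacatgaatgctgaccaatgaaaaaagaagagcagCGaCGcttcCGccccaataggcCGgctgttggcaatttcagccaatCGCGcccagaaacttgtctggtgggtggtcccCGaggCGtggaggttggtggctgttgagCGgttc
Mesd, chr7:83892016-83892315, plus strand: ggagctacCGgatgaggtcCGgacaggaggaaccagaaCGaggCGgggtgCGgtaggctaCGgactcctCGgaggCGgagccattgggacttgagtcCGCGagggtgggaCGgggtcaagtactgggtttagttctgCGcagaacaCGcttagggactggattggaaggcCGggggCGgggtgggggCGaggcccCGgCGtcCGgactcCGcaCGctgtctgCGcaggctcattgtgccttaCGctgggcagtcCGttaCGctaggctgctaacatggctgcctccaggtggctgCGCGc

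The Foxp1 window held 44 CpG dinucleotides and the Erg window 4, so internal starts of both kinds lay in regions open in all 3 cultures. The other windows held 28 in Ccnd3, 27 in Mesd, 26 and 6 in Pik3cd, 22 in Cetn3 and 18 in Dnmt3a. GC content was 75.3% in the Foxp1 window and 46% in the Erg window.

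A smaller share of regions inside genes than of regions at gene ends had a peak in all 3 lists, which describes the choice of regions and is not a test. Of 6990 gene-body regions under 1500 bp, 2945 had a peak in 1 list, 1524 in 2 lists and 2521 in all 3, so that 36.1% (34.9 to 37.2) were common. Of 10816 regions of the same width class at gene ends, 74.7% (73.9 to 75.5) were common, and of 5833 outside genes, 30.4% (29.3 to 31.6). A DMSO peak lay in 3831 of the gene-body regions, a rapamycin peak in 4255 and an AZD2014 peak in 5470. The AZD2014 list was the longest, with 21321 peaks against 17189 for DMSO and 18233 for rapamycin, and whether depth contributed was not tested. Common gene-body regions had a median width of 768 bp (range 191 to 1496), against 992 bp at gene ends and 711 bp outside genes, and 2493 of the 2521 held exactly 1 peak of each list.

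Most common gene-body regions were weakly to moderately scored. The median score of the highest peak in a region was 103 in DMSO, 146 in AZD2014 and 112 in rapamycin, where the lowest score of the lists was 50.01, 50 and 50. Scores are the authors' own values and are not on a shown common scale between lists, so each region was ranked, in each list, among the same 13670 common regions, from 0 for the lowest to 100 for the highest. Ranks and scores below are in the order DMSO, AZD2014 and rapamycin unless stated. The median rank of common gene-body regions was 28.7, 27.9 and 27.8. Common regions of the same width class at gene ends had median ranks of 58.2, 58.1 and 58.4, and those outside genes 24.5, 23.1 and 23.7. In each of the 3 lists, therefore, regions within genes ranked near those outside genes and well below those at gene ends. Within the whole lists, 37.6% of common gene-body regions lay in the upper 50% of DMSO peaks by score, 55.2% in that of AZD2014 peaks and 40.8% in that of rapamycin peaks. With each list shortened to its 17189 highest-scoring peaks and the regions formed anew, 2274 regions met the rule. Of these, 41.6%, 40.5% and 39.9% lay in the upper 50% of the shortened lists.

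**Figure D1:**
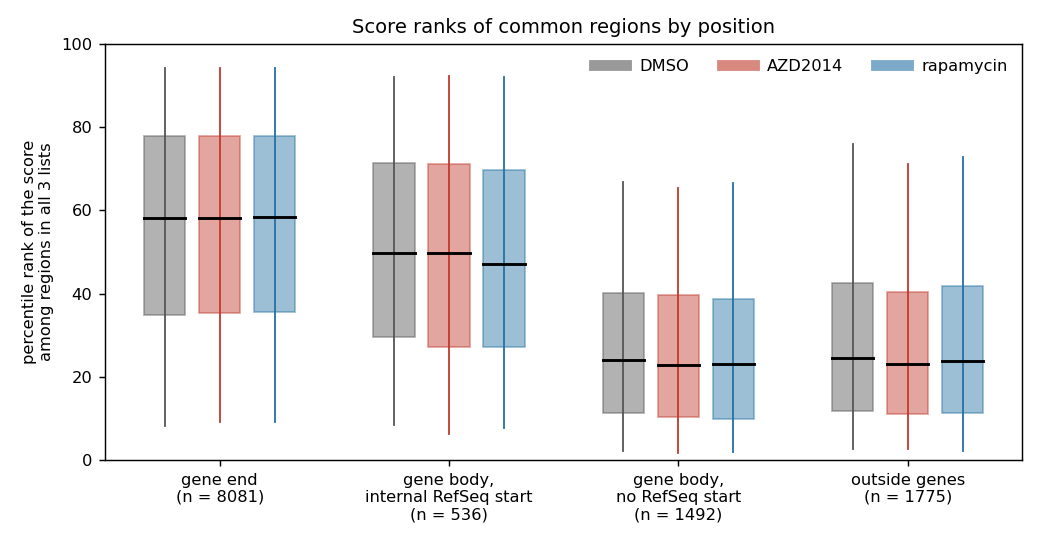
Percentile rank of the score among the 13670 regions found in all 3 lists, for regions under 1500 bp by position; boxes span the quartiles, black lines are medians and whiskers run from the 5th to the 95th percentile of regions. Gene-body regions with an internal RefSeq start have medians between 47.2 and 49.8, and those without between 22.8 and 23.97.

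A minority of the regions covered an annotated internal transcript start, and these were the wider and more highly ranked ones. Of 2028 common gene-body regions whose host had a start in the RefSeq table, 536 (26.4%, interval 24.6 to 28.4) overlapped the window of a start that lay within the gene. The other 493 regions had hosts outside that table and were not scored. Median ranks were 49.8, 49.7 and 47.2 with an internal start and 23.97, 22.8 and 23.1 without one, and median widths were 957.5 and 723 bp. In DMSO, 49.8% (45.6 to 54.0) of regions with an internal start lay in the upper 50% of common regions, against 15.2% (13.5 to 17.1) of those without. Of the 100 regions with the highest mean rank among the 2028 scored ones, 77 had an internal start, and of the 100 with the lowest, 3 had one. Regions without an annotated start were thus ranked like regions outside genes in all 3 lists, while those with a start lay between them and gene ends.

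Regions with an internal start were placed nearer the 5′ end of their gene. Of 538 pairs of such a region and a host of known strand, 48.7% lay in the first 25% of the gene's length and 5.58% in the last 25%, with a median distance of 8.18 kb from the 5′ end. Of 1511 pairs without an internal start, 24.2% lay in the first 25% and 23.1% in the last 25%, with a median distance of 34.8 kb. The position of internal RefSeq starts outside common gene-body regions was not compared. The outermost 5′ end of a gene that hosted an open internal start often lacked a common region of its own. Such a region lay at the 5′ end of 136 of 527 hosts of an internal-start region (25.8%, interval 22.3 to 29.7). The same held for 556 of 1113 other hosts (49.96%, 47.0 to 52.9) and for 622 of 1851 genes that had an internal RefSeq start but hosted no common gene-body region (33.6%, 31.5 to 35.8). By gene length, the first of these shares was below the second in each of 5 length classes, with 27.9% against 52.2% in the class of 30 to 100 kb, which held the most hosts. It was below the third in 4 classes, and above it in genes over 300 kb, with 5 of 20 hosts (25%, 11.2 to 46.9) against 16 of 98 genes (16.3%, 10.3 to 24.9).

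The internal starts that fell in common gene-body regions were rich in CpG. RefSeq gave 4728 starts more than 1 kb inside a gene, in 3572 genes, of which 628 (13.3%) lay in a common gene-body region and 3444 (72.8%) under no peak of any list. The 628 windows had a median of 20 CpG dinucleotides in 300 bases (quartiles 13 and 28) and a median GC content of 61.7%. The 3444 windows under no peak had a median of 4 CpG dinucleotides (quartiles 2 and 7) and a GC content of 49%. Starts in common regions at gene ends had 23 CpG dinucleotides and a GC content of 62%, so that the open internal starts resembled them in composition.

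**Figure D2:**
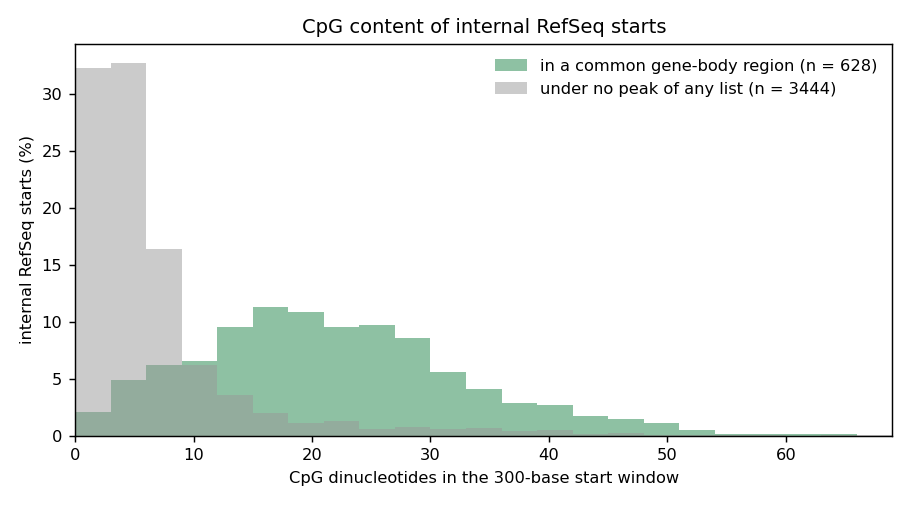
Share of internal RefSeq starts (vertical axis, percent) by the number of CpG dinucleotides in the 300-base window around the start, for 628 starts in common gene-body regions (green) and 3444 starts under no peak of any list (grey). The medians are 20 and 4 CpG dinucleotides.

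Short motifs were counted in the same windows on both strands, as a description of the letters and not of binding. GGGCGG, the box of SP and KLF factors, was in 65.6% of open internal starts, in 17.0% of those under no peak and in 35.7% of all 32851 start windows. The cyclic AMP response element TGACGTCA was in 2.71%, 0.813% and 1.79%, respectively. AGATAA, read by GATA factors, was in 6.85% of open internal starts, 14.3% of those under no peak and 11.2% of all windows, and TGTGGT (RUNX) in 12.4%, 19.1% and 16.8%. AGGAAG (ETS) was in 34.1%, 37.2% and 35.4%, TGANTCA (AP-1) in 4.78%, 9.29% and 7.81%, and CANCTG (the E-box) in 44.1%, 57.4% and 51.4%. CCAAT was in 38.7%, 36.1% and 37.4%. The SP and KLF box and the cyclic AMP response element, both of which contain a CpG, were more frequent in open internal starts than under no peak, and the GATA, RUNX, AP-1 and E-box motifs less frequent. The base composition of the windows moved with these shares, and its part in them was not tested. The counts of the SP and KLF box and of the CCAAT box were added after the others had been seen. Regions without an annotated start are not covered by these windows.

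The 2521 regions lay in 2057 host genes, which is 9.40% of 21887 protein-coding genes. Of these hosts, 1680 held 1 region, 292 held 2, and 85 held 3 or more, and 34 regions lay in more than 1 gene. The 377 genes with 2 or more regions were 1.72% of protein-coding genes. Hosts were long, with a median length of 67.2 kb against 17.2 kb for all protein-coding genes. Of genes up to 10 kb, 0.984% hosted a region, against 15.2% of genes of 30 to 100 kb and 38.1% of genes over 300 kb. Per length of gene the order was not the same, with 3.87 regions per Mb in genes of 10 to 30 kb and 1.08 per Mb in genes over 300 kb, and 2.43 per Mb over all genes. When peaks below the median score of their list were left out, 725 regions in 702 hosts were left, and 30 genes had 2 or more.

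Regions that shared a gene were mostly far apart: 499 pairs of neighbours within a gene had a median gap of 25.2 kb, and 53 pairs were under 5 kb apart. Gse1, whose product is found in histone deacetylase complexes, held 9 regions in 353 kb. Tiam1, a guanine nucleotide exchange factor for Rac, held 7 in 358 kb. Rere (an atrophin-family corepressor), Snx29 (a sorting nexin), Zfhx3 (a zinc-finger homeobox transcription factor) and Pde4d (a cyclic AMP phosphodiesterase) held 5 each, in genes of 340.5, 436, 682 and 1302 kb. These genes lie far above the median length of hosts.

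Within Gse1, 4 regions lay between 141 and 149.6 kb from the 5′ end, at ranks that differed between lists. The region at chr8:120368622-120369591 had ranks of 49.7, 13.4 and 18.2, highest in DMSO. Its neighbour at chr8:120369633-120370725, immediately downstream, had ranks of 5.25, 29.4 and 27.98, lowest in DMSO. The region at chr8:120276057-120277304, 48.2 kb from the 5′ end, kept ranks of 71.4, 67.9 and 69.7 and scores of 246, 335 and 276. The region at chr8:120563629-120564690, near the 3′ end, ranked 48.7, 70.3 and 50.2, highest in AZD2014.

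In Tiam1, 4 of the 7 regions had ranks of at least 29.2 in every list, and the others were lower. The highest lay 159 kb from the 5′ end at chr16:89985504-89986761, with scores of 194, 279.8 and 259.8 and ranks of 59.8, 58.8 and 66.9. The most distal, 297 kb from the 5′ end, had scores of 54.3, 67.97 and 57.2 and ranks of 2.14, 3.72 and 2.99, close to the lower limit of the lists. Zfhx3 held no region in its first 300 kb, and its 5 regions lay between 333 and 608 kb from the 5′ end. The Zfhx3 region at chr8:108722627-108723633 had ranks of 4.92, 35.2 and 31.99, and that at chr8:108886533-108887447 of 1.87, 31.9 and 12.9, both lowest in DMSO.

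**Figure D3:**
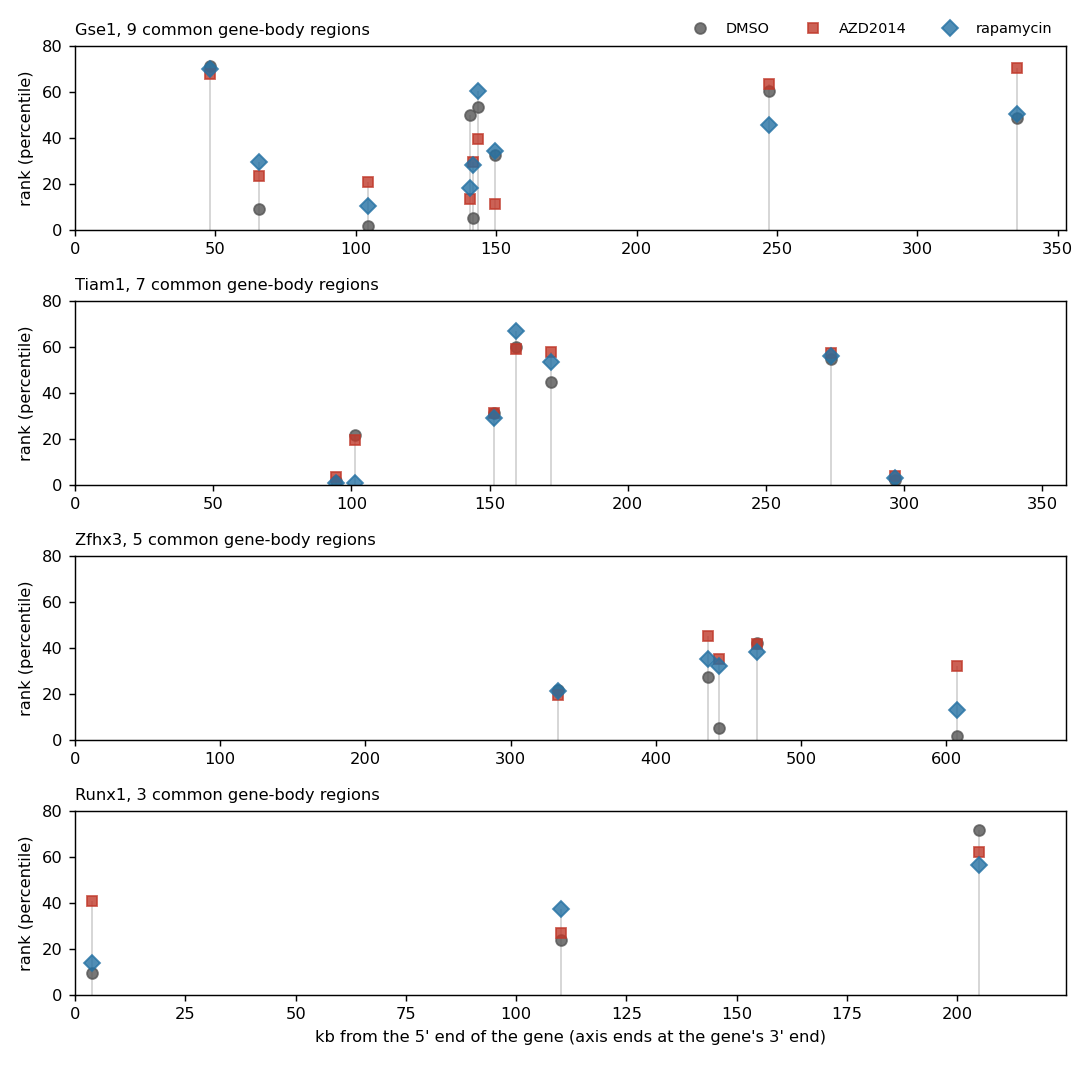
Ranks of each common gene-body region in the DMSO, AZD2014 and rapamycin lists (vertical axis, percentile among 13670 common regions) against distance from the 5′ end in kb, for Gse1, Tiam1, Zfhx3 and Runx1; each horizontal axis ends at the 3′ end of that gene. Ranks range from 0.757 in Tiam1 to 71.7 in Runx1, and the 3 lists lie close together at some regions and apart at others.

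Shorter genes with several regions included genes of iron handling, the cell cycle and small GTPase signalling. Steap3, an endosomal ferrireductase of the transferrin cycle, held 4 regions in 44.7 kb. Of these, the region at chr1:120264564-120265906, at an internal start, had scores of 292, 427 and 315 and ranks of 79.2, 79.99 and 75.7, and the other 3 ranked at most 24.3 in any list. Def6, an exchange factor for Rac and Cdc42, had the highest density among genes with 3 or more regions, 3 in 21.2 kb or 14.2 per 100 kb. The Def6 region with the highest ranks lay at chr17:28223705-28224674, with ranks of 64.96, 54.7 and 68.9. Sema4b (a semaphorin), Plekhg5 (a guanine nucleotide exchange factor) and Capn2 (the catalytic subunit of calpain 2) followed with 7.54, 6.98 and 5.96 regions per 100 kb. Arhgap23, a GTPase-activating protein, and Cuedc1, with a ubiquitin-binding CUE domain, held 4 each in 98.05 and 94.99 kb.

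The 10 highest-ranked regions differed in width and in whether they covered an annotated start. Cetn3, Mesd and Cnnm2 (a protein of magnesium transport) had a region of 1355 to 1468 bp at an internal start. The Cetn3 region at chr13:81782843-81784232 had scores of 605, 984 and 748, the Mesd region at chr7:83891399-83892866 of 844, 807 and 678 and the Cnnm2 region at chr19:46760660-46762014 of 654, 703 and 691. By contrast, the regions in Zc3h7a (a CCCH zinc-finger protein), Chl1 (a neural adhesion molecule), Peak1 (a pseudokinase), Il31ra (an interleukin 31 receptor subunit) and the overlapping genes Cmss1 and Filip1l were 553 to 979 bp wide, had no internal start and ranked at least 97.6 in every list. The Zc3h7a region at chr16:11143770-11144615 had scores of 2897, 3100 and 2451, the last but one being the highest value in the AZD2014 list. Common regions outside genes and those of 1500 bp or more also reached 3100 in that list, so the value was shared. The Chl1 region had scores of 1481, 1746 and 1517 and the Peak1 region of 1549.9, 1557 and 1549. Chl1 had no common region at either gene end. No list of artefact-prone regions of the genome was used here, and whether these narrow regions reflect open chromatin was not tested. Cdk8 (the kinase of the Mediator complex), with a region of 838 bp and no internal start, and Pcmtd1, with one of 1485 bp that was not scored for starts, completed the 10 highest, with ranks of 99.2, 96.9 and 98.1 in Cdk8 and 96.7, 98.3 and 98.6 in Pcmtd1.

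Transcription factors of HSCs were frequent hosts. Of 30 listed factors 14 (46.7%) hosted a common gene-body region, beside 9.40% of all protein-coding genes and 19.97% of all protein-coding genes weighted to the same length classes. They included Runx1 with 3 regions, Foxp1, Ldb1, Mef2c, Meis1 and Zfpm1 with 2 each, and Elf1, Erg, Ets1, Fli1, Gata2, Lmo2 and Spi1 with 1 each. Their 22 regions had median ranks of 23.1, 33.9 and 33.5. Against DMSO, 8 ranked at least 10 percentile points higher and 1 lower in AZD2014, where 19.1% of all common regions were higher and 19.2% lower. In rapamycin 12 were higher and 3 lower, where 20.3% and 20.2% of all common regions were. Both counts use the same DMSO list. Among peaks above the median score of their lists, 5 of the 30 factors were hosts, beside 702 of 21887 protein-coding genes. This last comparison was not matched for gene length. The median length was 92.5 kb for the listed factors and 17.2 kb for all protein-coding genes.

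Runx1, a factor required for blood stem cells to form, had regions 3.86, 110.2 and 205 kb from its 5′ end. The proximal region at chr16:92821743-92822681 had scores of 67.8, 194 and 80.3 and ranks of 9.64, 40.97 and 14.02, highest in AZD2014. The middle region at chr16:92715429-92716294 had ranks of 23.8, 27.04 and 37.3, highest in rapamycin. The distal region at chr16:92620490-92621696 had the highest scores of the gene, 248, 299 and 209, and ranks of 71.7, 62.1 and 56.4, so that its order between lists was the reverse of that of the middle one.

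Gata2, a zinc-finger factor of stem and progenitor cells, had 1 region 9.44 kb from its 5′ end at chr6:88202899-88203771, with scores of 91.2, 207 and 141 and ranks of 22.4, 43.8 and 38.8. The region was lowest in DMSO on rank, and an intronic enhancer of Gata2 is well studied in blood stem cells, though exons and introns were not separated here. Erg had 1 region, that of the internal start shown above, with scores of 69.3, 78.3 and 77.98 and ranks of 10.5, 6.33 and 12.9, low in all 3 lists. Fli1, an ETS factor of HSCs and megakaryocytes, also had 1 low region, with ranks of 16.3, 7.47 and 13.4.

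Meis1, a homeobox factor of HSC self-renewal, had regions at chr11:18924534-18925455 and chr11:18969802-18970650. The first had ranks of 33.8, 51.9 and 37.4, highest in AZD2014, and the second of 28.8, 31.2 and 44.4, highest in rapamycin. Zfpm1 (FOG-1, a cofactor of GATA factors) had regions with ranks of 56.2, 64.8 and 34.98 and 2.98, 20.1 and 24.4. Ets1, an ETS factor, held the highest-ranked region of this group in AZD2014 and rapamycin, with scores of 242, 451 and 369.

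Foxp1 had 2 regions, at its distal internal start 494 kb from the 5′ end, with ranks of 19.9, 18.5 and 37.03, and at chr6:99388528-99389558, with ranks of 43.5, 49.4 and 57.2. Tal1, Mecom, Ikzf1, Etv6, Myb and Zeb2, all regulators of blood cells, hosted none, though all but Zeb2 had a common region at a gene end. Several of them had gene-body regions that were absent from a list: Etv6 had 0 in DMSO and 4 each in AZD2014 and rapamycin, and Tal1 had 1 in DMSO, 0 in AZD2014 and 1 in rapamycin. A missing peak says only that none passed the authors' threshold in that list.

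**Figure D4:**
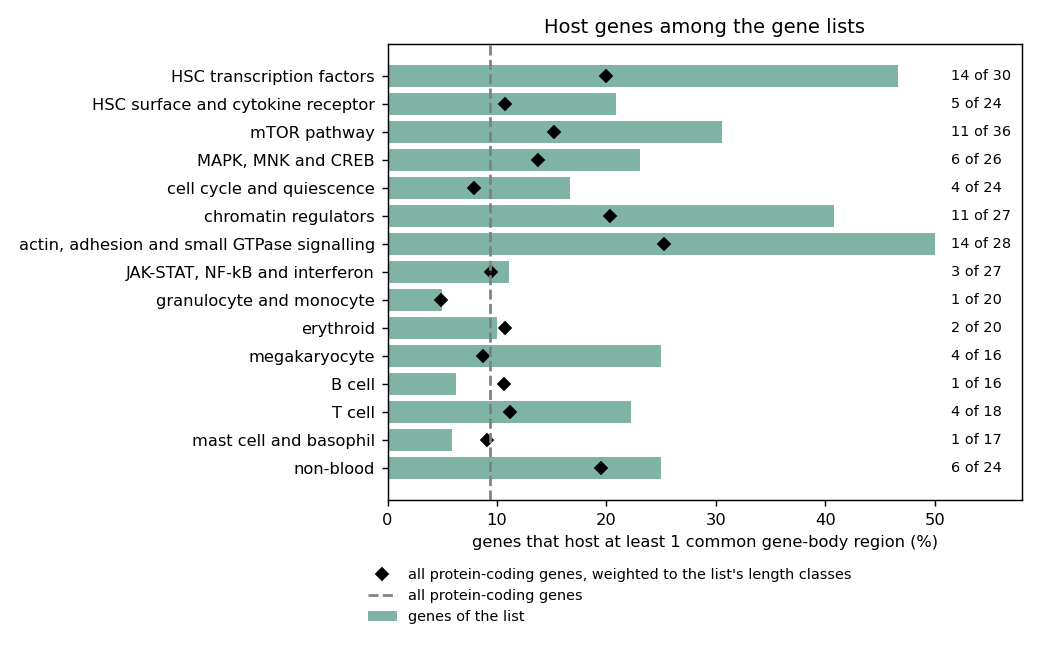
Share of the genes of each list that hosted at least 1 common gene-body region (bars), with the share of all protein-coding genes weighted to the list's length classes (diamonds) and the share of all protein-coding genes, 9.40% (dashed line). HSC transcription factors (14 of 30), chromatin regulators (11 of 27) and actin, adhesion and small GTPase genes (14 of 28) lie furthest to the right.

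Among HSC surface proteins and cytokine receptors 5 of 24 genes (20.8%, beside 10.7% at matched lengths) hosted a region, and the 6 regions had low median ranks of 5.13, 17.7 and 13.4. They were in Tgfbr2, the type II TGF-beta receptor, with 2, and in the adhesion and homing molecules Cd34, Cd44, Itga4 and Itga6. The Tgfbr2 regions had ranks of 4.68, 24.5 and 5.44 and 2.65, 15.9 and 27.2, neither above 27.2 in any list. The Itga4 region, in the integrin alpha 4 gene, had scores of 58.2, 72.8 and 80.4, near the lower limit in each list. Kit, the stem cell factor receptor, had a common region at a gene end, no gene-body region in DMSO and 1 each in AZD2014 and rapamycin.

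The labelled cell type was checked against marker genes of HSCs. Of 14 such markers 5 (Cd34, Gata2, Meis1, Runx1 and Erg) hosted a common gene-body region and 8 had one there or at a gene end, while Slamf1, Procr, Prdm16, Fgd5 and Ly6a were among those with neither. None of 6 T cell markers, 4 mast cell markers and 5 non-blood markers had either. Either was found at 1 of 8 granulocyte and monocyte markers (Csf1r), at 2 of 6 erythroid, 1 of 4 B cell and 3 of 4 megakaryocyte markers, the last with gene-body regions in Vwf and Itga2b. Of all protein-coding genes, 9.40% hosted a common gene-body region and 43.9% had a common region at a gene end. The markers were few and not matched for gene length, so their counts are no test of the label. Open chromatin at a gene is not its RNA, and in bulk cells a few open cells cannot be told apart from weak opening in many.

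In the mTOR pathway, the target of both drugs, 11 of 36 genes (30.6%, beside 15.2% at matched lengths) hosted 14 regions. From receptor to kinase these were Igf1r (the IGF1 receptor, 2 regions), Insr (the insulin receptor), the adaptors Irs1 and Grb10, the PI3-kinase subunits Pik3cd (2) and Pik3r1, and the kinase Pdpk1. Around mTOR itself they were Rptor (Raptor, the defining subunit of mTORC1, 2 regions), Deptor (an mTOR-binding inhibitor), Tsc2 (a brake on the activator Rheb) and Sesn1 (a sestrin, which restrains mTORC1). Mtor hosted none and had no gene-body peak in any list, though it had a common region at a gene end. The 14 regions had median ranks of 30.8, 32.6 and 25.5. Of these, 3 were at least 10 percentile points higher and 4 lower in AZD2014 than in DMSO, where 19.1% and 19.2% of all common regions were. In rapamycin 3 were higher and 7 lower, where 20.3% and 20.2% of all common regions were. Both counts use the same DMSO list.

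The Sesn1 region at chr10:41887046-41887933, at an internal start 76.9 kb into the gene, had scores of 147, 351 and 212 and ranks of 46.4, 70.3 and 57.2, highest in AZD2014. The Pik3cd regions at the starts shown above had ranks of 48.3, 23.2 and 30.05 for the distal one and 17.8, 21.03 and 3.79 for the proximal one. The distal start was highest in DMSO and the proximal one lowest in rapamycin. The Rptor region at chr11:119676794-119677503 had ranks of 5.60, 14.4 and 0.49, and that at chr11:119856465-119857304 of 23.1, 30.2 and 34.5, so that both had moderate to low ranks. The regions of Igf1r moved little, with ranks of 47.8, 48.2 and 48.96 and 33.6, 34.97 and 37.7. Insr had the region highest in rapamycin, with ranks of 49.9, 49.9 and 73.3.

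Of genes of the MAPK, MNK and CREB pathways, 6 of 26 (23.1%, beside 13.7% at matched lengths) hosted 7 regions. They were the exchange factors Sos1 and Sos2, the kinases Map3k1 and Mknk1 (MNK1, which phosphorylates eIF4E), and the transcription factors Crem (2 regions) and Creb5. The Sos1 region at chr17:80468269-80469015 had scores of 239, 404 and 452 and ranks of 69.98, 77.3 and 90.1, highest in rapamycin. The Mknk1 region at chr4:115848987-115849719 had ranks of 16.9, 37.5 and 39.1, lowest in DMSO, and that of Map3k1 had ranks of 27.6, 50.96 and 25.4, highest in AZD2014. The Crem regions had ranks of 71.05, 67.9 and 61.9 and 21.2, 26.9 and 10.2.

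Cell cycle and quiescence genes hosted regions in 4 of 24 cases (16.7%, beside 7.90% at matched lengths). Ccnd3, a D-type cyclin that drives entry into S phase, held 4 regions in 94.6 kb, and the list's other hosts were its partner kinase Cdk6, the CDK inhibitor Cdkn1a (p21) and the quiescence factor Foxo3. In Ccnd3 the region at chr17:47507709-47508704, 3.16 kb from the 5′ end, had ranks of 49.3, 48.9 and 47.04, which lay close together. The region at chr17:47521352-47522292 had ranks of 55.8, 27.2 and 24.9, highest in DMSO, and that at the internal start of 42.8, 42.97 and 23.1, lowest in rapamycin. The Cdkn1a region at chr17:29094934-29095901, 4.44 kb into a gene of 9.74 kb, had scores of 252, 383 and 186 and was the highest-ranked of the group. Its ranks were 72.4, 74.6 and 50.7, lowest in rapamycin.

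Chromatin regulators hosted regions in 11 of 27 cases (40.7%, beside 20.3% at matched lengths). Arid1b, a subunit of BAF remodelling complexes, held 4 and Dnmt3a held 3, and the hosts of single regions included Arid1a, Dnmt1, Hdac4, Hdac7, Kdm2b, Kdm6a, Kmt2d and Smarca2. The Dnmt3a region at chr12:3870773-3871633 had scores of 217, 171 and 107 and ranks of 65.4, 34.9 and 25.96, highest in DMSO. The region at the internal start of Dnmt3a had ranks of 21.8, 0.278 and 25.5, near 0 in AZD2014, whereas the third region, at chr12:3855664-3856500, had ranks of 34.98, 23.99 and 35.7. The internal starts of Dnmt1, the maintenance DNA methyltransferase, and Kdm2b, a demethylase that binds CpG islands, were high in all lists. The Dnmt1 region had ranks of 81.3, 74.5 and 86.9 and that of Kdm2b 89.6, 83.5 and 76.9. In Arid1b the region at chr17:5189587-5190603 had ranks of 54.5, 75.1 and 74.8, lowest in DMSO.

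Genes of actin, adhesion and small GTPase signalling were hosts in 14 of 28 cases (50%, beside 25.3% at matched lengths). Their 20 regions had low median ranks of 14.3, 17.9 and 16.5, below those of all common gene-body regions. Fnbp1, which links membranes to actin, had 3, and Arhgap26, Dock10, Elmo1 and Itgb3 had 2 each. The highest of the group in AZD2014 was that of Vav1, the Rac exchange factor of blood cells, with scores of 290.4, 548 and 369 and ranks of 78.97, 90.1 and 82.5. The Fnbp1 region at the internal start 3.41 kb from its 5′ end had ranks of 63.96, 60.4 and 59.5, and its 2 distal regions ranked at most 38.7 in any list. Lyn, a Src-family kinase, had 1 region with ranks of 9.53, 15.99 and 14.5.

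Hosts were also counted in lists of cytokine signalling and of differentiated lineages. In the JAK-STAT, NF-kB and interferon list 3 of 27 genes (11.1%, beside 9.49% at matched lengths) were hosts, with 2 regions in Stat5b and 1 each in Stat3 and Irf2. Jak2 hosted none, though it had a common region at a gene end. Of 20 granulocyte and monocyte genes 1 was a host (5%, beside 4.88% at matched lengths), and of 20 erythroid genes 2 (10%, beside 10.8%), Ank1 and Sptb of the red cell membrane skeleton. Of 16 B cell genes 1 was a host, Bach2 (6.25%, beside 10.6%), and of 17 mast cell and basophil genes 1, Mitf (5.88%, beside 9.07%). Of 18 T cell genes 4 were hosts (22.2%, beside 11.2%). The T cell hosts included Runx3, Gata3 and Prkcq, and the Gata3 region had ranks of 48.7, 55.4 and 53.7. Of 16 megakaryocyte genes 4 (25%, beside 8.69% at matched lengths) were hosts. They included Itga2b (CD41) with 2 regions, Selp (P-selectin) and Vwf. The Itga2b region 2.62 kb from the 5′ end had ranks of 60.2, 60.4 and 65.01 and that of Selp 65.04, 51.2 and 57.98, both above the middle of the common regions in every list.

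Among 24 non-blood genes 6 (25%) were hosts, beside 19.5% at matched lengths. They included the very long neuronal genes Nrxn3, Dlg2, Cntnap2 and Grin2b, and the muscle gene Dmd. Per length this group had 0.462 regions per Mb, against 2.43 over all protein-coding genes and 5.59 for HSC transcription factors. These densities were not matched for gene length. Nrxn3, Dlg2, Cntnap2 and Grin2b are 460 to 2241 kb long, and all protein-coding genes over 300 kb had 1.08 regions per Mb.

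Between lists the rank of most common gene-body regions moved by less than 10 percentile points, which held for 55.9% of them in AZD2014 and 53.4% in rapamycin against DMSO. Against DMSO, 498 regions (19.8%) were higher by 10 points or more in AZD2014 and 614 (24.4%) lower, where 19.1% and 19.2% of all common regions were. In rapamycin 529 (21.0%) were higher and 645 (25.6%) lower, where 20.3% and 20.2% of all common regions were. The median shift was -0.878 points in AZD2014 and -0.860 in rapamycin. Between the drugs, 511 (20.3%) were higher in AZD2014 and 491 (19.5%) lower, where 17.3% and 17.4% of all common regions were. Both comparisons with DMSO share the DMSO list. Common regions outside genes were lower than in DMSO in 26.3% of cases in AZD2014 and 26.4% in rapamycin, and gene-end regions in 17.6% and 18.7%. Gene-end regions were higher in 19.2% and 20.4% of cases, so that lower ranks outnumbered higher ones within and outside genes and higher ranks did so at gene ends. All classes were ranked within one set of common regions, so losses of rank in some classes are offset by gains in others. The opposite direction at gene ends is therefore not a separate result. With ranks taken within each whole list, whose lengths differ, 1082 regions were higher and 246 lower in AZD2014 than in DMSO, and 684 and 532 in rapamycin, so the direction depends on the regions ranked. No replicate was there to show how far ranks move between libraries of one condition.

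**Figure D5:**
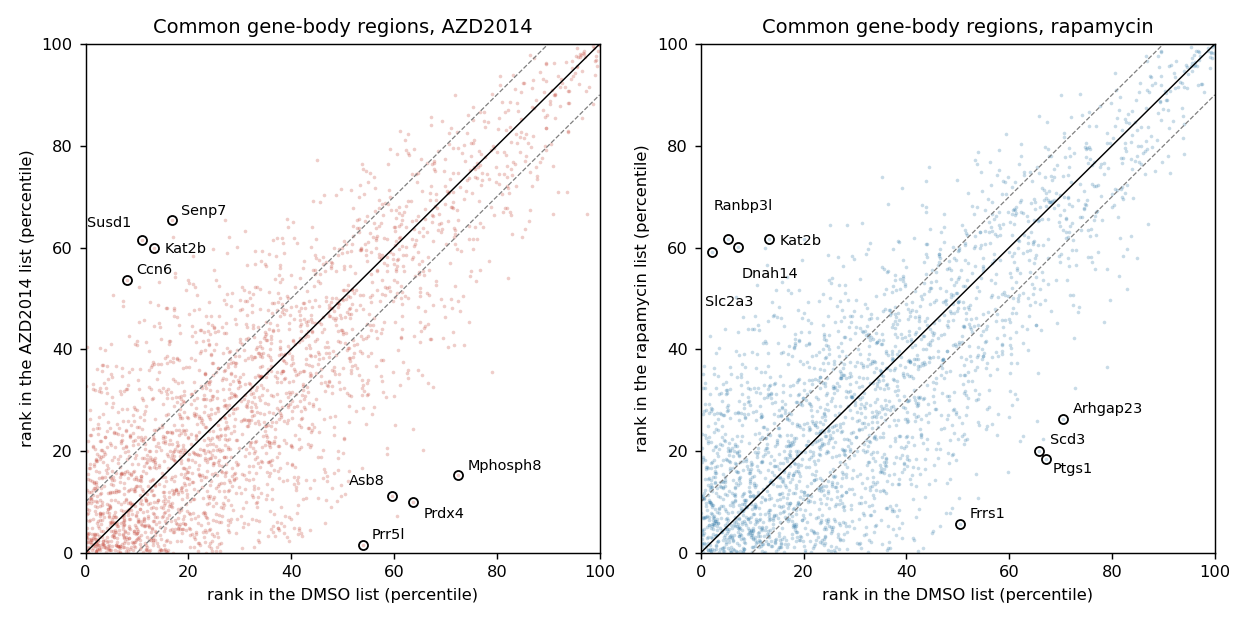
Rank of each of the 2521 common gene-body regions in the DMSO list (horizontal axis, percentile among 13670 common regions) against its rank in the AZD2014 list (left) and the rapamycin list (right); the solid line marks equal rank, dashed lines a shift of 10 points, and circles the regions of named genes with the largest shifts. In AZD2014 498 regions lie above the upper dashed line and 614 below the lower one, and in rapamycin 529 and 645.

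The largest gains of rank are given as the extremes of a ranking, and whether their genes share a function was not tested. Kat2b (PCAF, a histone acetyltransferase) had a region 20.7 kb from its 5′ end, at chr17:53586973-53588032, with scores of 74.1, 285 and 232 and ranks of 13.3, 59.97 and 61.6. It was low in DMSO and above the middle of the common regions under both drugs. Ranbp3l, a Ran-binding protein, likewise had ranks of 5.37, 50.6 and 61.7, and Senp7, a SUMO protease, had an internal start with ranks of 16.8, 65.3 and 54.2. Susd1 had ranks of 10.9, 61.5 and 52.5 and Ccn6, a matricellular protein, of 8.02, 53.7 and 31.2, both highest in AZD2014. The region in Slc2a3, which encodes the glucose transporter GLUT3, had scores of 54.3, 115 and 221 and ranks of 2.15, 18.02 and 59.1, and was high in rapamycin alone of the 3 lists. Dnah14, an axonemal dynein, had ranks of 7.29, 48.6 and 60.1 and Tnfrsf8 (CD30) of 12.5, 49.4 and 59.97. The lowest score in the DMSO list was 50.01. Gains and losses against DMSO were picked on ranks in this same list, a choice that favours low DMSO ranks for gains and high ones for losses.

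The largest losses of rank included a partner of mTORC2. Prr5l (Protor-2, which binds mTORC2) had 2 regions that differed: that at chr2:101762247-101763480 had scores of 171, 58.7 and 73.8 and ranks of 53.9, 1.61 and 10.7, highest in DMSO. The other, at chr2:101732579-101733353, had ranks of 5.68, 6.94 and 36.5, highest in rapamycin. Mphosph8, a reader of methylated histone H3 in the HUSH silencing complex, had ranks of 72.5, 15.3 and 48.7 and Prdx4, a peroxiredoxin of the endoplasmic reticulum, of 63.6, 9.99 and 39.9. Both were lowest in AZD2014. The internal starts of Asb8, a SOCS-box protein, and 9530077C05Rik had ranks of 59.7, 11.2 and 15.9 and 60.6, 7.23 and 29.1.

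For rapamycin the largest losses were at the internal start of Ptgs1 (cyclooxygenase 1), in Frrs1 (a ferric reductase), in Srgap3 and Arhgap23 (both GTPase-activating proteins) and where Pkd2l1 overlaps Scd3 (a stearoyl-CoA desaturase). The Ptgs1 region at chr2:36230191-36231390 had scores of 225, 199 and 89.9 and ranks of 67.1, 42.02 and 18.5. The Arhgap23 region had ranks of 70.6, 40.5 and 26.3, and that of Scd3 and Pkd2l1 of 65.8, 44.2 and 20.02. Each of these was highest in DMSO and lowest in rapamycin.

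Between the 2 drugs, the largest differences were in 1 of the 3 regions of Vgll4 (a cofactor of TEAD factors), in Sipa1l2 and at an internal start of Impdh1 (an enzyme of guanine nucleotide synthesis), all higher in AZD2014. The Vgll4 region at chr6:114874813-114875769 had ranks of 53.5, 59.9 and 15.5 and that of Impdh1 of 34.99, 56.7 and 16.8. On the other side, Atp4a (the gastric proton pump) and Cog6 (a Golgi tethering subunit) were higher in rapamycin, as was Gm9949. The Atp4a region had scores of 117, 131 and 303 and ranks of 35.2, 23.1 and 73.95, and that of Cog6 ranks of 37.5, 4.86 and 52.5.

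At the limits of the rule, the widest regions kept were in Cic and Ptprs, each 1496 bp, and Stat5b, 1493 bp, and the narrowest ones left out for width were in Prkar1a (1500 bp), Ipo5 (1501 bp) and Rnf126 (1502 bp). The kept regions nearest to a gene end lay 1006 bp from it, in Abcc4 and 2510039O18Rik, and the nearest left out lay 1000 bp from it, in Gnb1l, Gm4070 and Myo5a. The lowest scores kept were 50.04 in rapamycin in Ncoa4, 50.08 in AZD2014 in Card19 and 50.08 in DMSO in Nsd3.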

How the data were processed

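ATAC-seq peak lists of 3 libraries were used, 1 per condition, grouped by sample title. Per the labels' protocols, 50000 cells were transposed for 30 min at 37 °C. CASAVA and the build mm10 are named per the submitters' processing notes. The sources used here do not give the aligner, the peak caller's settings, duplicate removal or read shifting, which set how many weak peaks are listed and how wide they are. The authors deposited 1 peak list per library, called per sample, with a score per peak that served here for ranks within a list. Read depth is unknown.

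Peaks overlapping by at least 1 bp were merged, and a region took its highest score in each list. Coordinates are those of the deposited lists (mm10), counted from 1. Gene positions (49943 genes, 21887 protein-coding) and start windows came from RefSeq tables on GRCm38.p6. Exons and genome sequence were not used here, so exons and introns were not separated and motifs were searched in start windows only. Start windows were used for 17492 protein-coding genes, none on chromosome 18. Matched-length shares weight all protein-coding genes to a list's share of genes up to 10 kb, to 30, to 100, to 300 and over 300 kb. The 349 listed genes, the members and the rules were chosen with earlier results of these data known.

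Named genes were hosts of the 10 highest mean ranks, the 10 hosts with the most regions, the 5 densest with 3 or more, the extremes of rank shift (5 per side against DMSO, 3 between drugs), 20 fixed genes and up to 4 hosts per list. Ets1, Insr and Vav1 were named after their values were seen. Some listed genes are counted in their lists but not reported here by name. Alternatives varied the overlap, the score threshold, list length, width limit, gene ends, placement, score, shift size and ranking set. The code was tested on simulated peaks. Python 3.11.15, numpy 2.4.6, pandas 2.3.3, scipy 1.17.1 and matplotlib 3.10.9 were used.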

Additional observations from a re-analysis of the deposited data

How the results depend on the processing

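No paired analysis was possible because each condition had 1 library, and no library could be left out for the same reason. No other mapping or peak calling could be tried, and depth, which limits how many weak regions are listed, is unknown. Over the alternatives that redefine the regions, the number of common gene-body regions ranged from 1994 (merged width under 1000 bp) to 2766 (gene ends of 500 bp), apart from 725 where only peaks in the upper 50% of their list by score were used. That last setting left 702 hosts, 30 with several regions, a 9.46% share of common regions, and 49.5% of regions in the upper 50% of the AZD2014 list. The share of common regions was 17.5% with lists of equal length, 14.6% under 1000 bp, 19.3% with no width limit, 20.2% with gene ends of 500 bp, 15.6% with 2500 bp, 20.1% with the ends of protein-coding genes only and 20.2% by centre base. The share in the upper 50% of the DMSO list was 39.9% with a reciprocal overlap of 50%, 41.6% with equal lists, 28.4% under 1000 bp, 39.8% with no width limit or by centre base, and 35.5% with gene ends of 2500 bp. For the AZD2014 list it was 40.5% with equal lists and 46.8% under 1000 bp, and for the rapamycin list 31.7% under 1000 bp, 42.9% with no width limit and 43.0% by centre base. With shifts of 5 points, 797 regions were higher and 925 lower in AZD2014 than in DMSO, 812 higher in rapamycin than in DMSO, and 818 higher and 793 lower in AZD2014 than in rapamycin. With 20 points the counts were 179 and 227 (lower minus higher 48) for AZD2014 against DMSO, 205 and 248 (43) for rapamycin against DMSO, and 138 and 154 for AZD2014 against rapamycin, where the difference turned from -20 to 16. Ranks within the whole list, whose lengths differ, gave 1082 and 246 (-836) for AZD2014 against DMSO, a difference of -152 for rapamycin against DMSO, and 977 and 238 (-739) between the drugs. The first 2 were 116 each among common regions, so both turned, and the lists' unequal lengths enter these ranks by construction. The cause of the other changes was not tested. Hosts by list, with only the upper 50% of peaks, were 5 HSC transcription factors, 4 mTOR pathway, 2 MAPK, MNK and CREB, 2 cell cycle, 6 chromatin, 6 actin, adhesion and small GTPase, 2 T cell and 1 non-blood gene, and 0 in the HSC surface, JAK-STAT, granulocyte, erythroid, B cell and mast cell lists. Under 1000 bp they were 7 chromatin and 2 megakaryocyte genes, with gene ends of 500 bp 5 JAK-STAT and 4 erythroid, with 2500 bp 2 T cell, with protein-coding ends 2 B cell and 2 mast cell, and by centre base 5 JAK-STAT genes.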

Other observations

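A common region lay at a gene end in 882 of 2057 genes that hosted a common gene-body region (42.9%) and in 8734 of 19830 genes that hosted none (44.0%). By length the shares were 24.4% of hosts and 31.1% of all genes up to 10 kb, 42.5% and 51.9% from 10 to 30 kb, 44.6% and 54.9% from 30 to 100 kb, 44.7% and 45.8% from 100 to 300 kb, and 39.6% and 28.7% over 300 kb. Hosts were thus below all genes in 4 of the 5 length classes and above them in the longest. Of 1719 common regions outside genes, 12 held a RefSeq start.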
